A study of Homo sapiens with 8 samples.

Results

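The genes described here build and remodel the extracellular matrix: collagens, laminins, fibronectin, fibulins, fibrillins, latent TGF-beta binding proteins, thrombospondins, matrix proteases with their inhibitors, and lysyl oxidases. They were taken by symbol family, together with FN1, SPARC, TNC and VCAN, which gave 89 of the 14535 genes in the table. Their levels were measured by mRNA sequencing of Calu-6 cells, a human lung carcinoma line recorded with a wild-type genotype. All cultures carried the same genotype, and the groups were DMSO vehicle for 24 h, 1 µM KI696 for 24 h, DMSO for 48 h and 1 µM KI696 for 48 h, with 2 libraries per group. KI696 is a compound that keeps KEAP1 from binding NRF2, the transcription factor of the antioxidant response. The letters A and B for the libraries of a group follow column order alone. Nothing in the labels says that they came from separate cultures, so p-values measure the spread between these libraries, which may be technical, and in this single cell line fewer cells expressing a gene and less of its RNA per cell cannot be told apart.

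The extracellular matrix is a network of secreted proteins that cells attach to and read through integrins. Collagens and fibronectin give it tensile strength, and laminins and network collagens form the basement membrane under epithelia. Fibulins and latent TGF-beta binding proteins associate with fibrillin microfibrils that store growth factors, and lysyl oxidases cross-link the fibres. Metalloproteinases of the MMP and ADAMTS families cut these proteins, and TIMP proteins inhibit the metalloproteinases. Carcinoma cells can make matrix themselves, most of all those with mesenchymal features.

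Of the 89 genes, 76 reached 1 CPM in 2 or more of the 8 libraries and were tested. CPM is the read count scaled to the effective library size behind the authors' log2 values. Per length of exon, the highest levels in the 4 DMSO libraries belonged to TIMP3 (326 CPM per kb), FN1 (227), TIMP1 (124), COL6A1 (122), LAMB1 (80.4) and COL5A2 (78.0). The remaining 13 genes were COL1A2, COL8A1, COL8A2, COL15A1, COL21A1, THBS2, FBLN5, FBN3, MMP7, MMP28, ADAMTS2, ADAMTS10 and ADAMTS16, with 3 to 46 reads each over all 8 libraries. COL1A2, which encodes the partner chain of COL1A1 in type I collagen, was among them with at most 2.88 CPM in any library. POSTN and COL4A2 were not analysed here.

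Most of the tested matrix genes were lower with KI696 than with DMSO at each time. At 24 h, 48 of 76 (63.2%) were called lower at an adjusted p under 0.05 (limma, Benjamini-Hochberg over all 13213 tested genes), where 30.5% of all tested genes were. The 4 called higher (5.26%, beside 18.1% of all) were TIMP4, COL27A1, LOX and LOXL3. At 48 h, 52 (68.4%) were called lower, beside 26.4% of all, and TIMP4 alone was called higher, beside 22.4% of all. A set of 41 was called lower at both times (53.9%, beside 19.9% of all), and TIMP4 higher at both (1.32%, beside 15.2% of all). The median log2 change of the 76 genes was -0.83 at 24 h and -1.13 at 48 h, against -0.12 and -0.07 over all tested genes. A fall of 1 log2 unit or more was called for 24 genes at 24 h, beside 9.73% of all genes, and for 43 at 48 h, beside 6.3%. None rose by as much, beside 1.29% and 1.96% of all genes.

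The shift also showed in the summed level. Reads of the 89 genes made up 0.874% and 0.879% of all reads in the DMSO libraries of 24 h and 0.540% and 0.526% in the KI696 libraries. At 48 h the shares were 1.20% and 1.29% with DMSO and 0.541% and 0.50% with KI696, so the groups did not overlap at either time. In 44 of 76 genes all 4 KI696 libraries lay below all 4 DMSO libraries, which held for 25.7% of all tested genes, and in LOXL3 alone they lay above, which held for 19.9% of all.

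**Figure D1:**
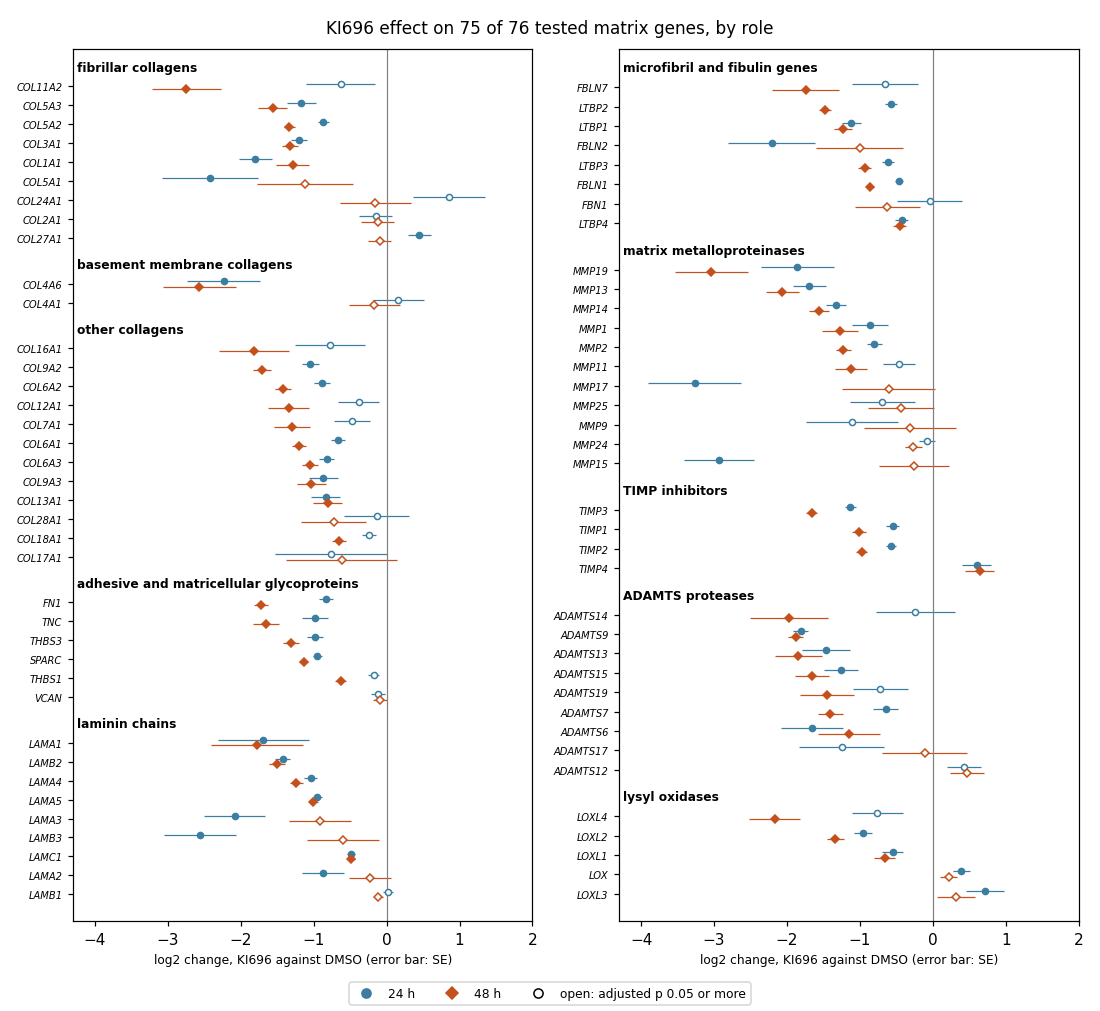
Log2 change with KI696 for 75 of the 76 tested genes, at 24 h (circles) and 48 h (diamonds), with the SE as a bar and genes in blocks by role; filled symbols have an adjusted p under 0.05. Most filled symbols lie left of 0, with 48 of the 76 called lower at 24 h and 52 at 48 h, and TIMP4 lies right of 0 at both times.

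Fibronectin, TIMP3, LTBP2 and FBLN1 fell at both times, and more at 48 h than at 24 h. FN1 (hg38 chr2:215360440-215436172, minus strand), the gene of fibronectin, stood at 1491 and 1487 CPM with DMSO and 863 and 809 with KI696 at 24 h, then at 2747 and 2549 with DMSO and 918 and 701 with KI696 at 48 h. The DMSO level rose over culture time while both KI696 groups stayed below every DMSO library. The log2 change was -0.83 (SE 0.09) at 24 h and -1.72 (SE 0.09) at 48 h, a difference of -0.89 (SE 0.13) with adjusted p = 0.01 by limma. TIMP3 (hg38 chr22:32801701-32863043, plus strand), an inhibitor of metalloproteinases that binds to the matrix, went from 765 and 759.9 to 358 and 339 CPM at 24 h and from 2033 and 2449.7 to 719.6 and 691 at 48 h. Its level in the KI696 libraries of 48 h was close to that of the DMSO libraries of 24 h. Its change was -1.13 (SE 0.07) and -1.66 (SE 0.07), and the difference -0.53 (SE 0.10) had adjusted p = 0.035.

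LTBP2 (hg38 chr14:74498170-74612378, minus strand), a microfibril protein of the latent TGF-beta binding family, went from 294 and 292 to 204 and 189 CPM at 24 h and from 361 and 430.2 to 132 and 151 at 48 h. The lowest 2 of its 8 values were the KI696 libraries of 48 h. Its change was -0.58 (SE 0.08) at 24 h and -1.48 (SE 0.08) at 48 h, a difference of -0.90 (SE 0.12) with adjusted p = 0.0089. FBLN1 (hg38 chr22:45502238-45601135, plus strand), a fibulin that binds fibronectin and laminin, went from 256 and 271 to 196 and 188 CPM and from 510.0 and 501 to 280.0 and 274 CPM. Its change was -0.46 (SE 0.06) and -0.87 (SE 0.06), with a difference of -0.41 (SE 0.08) and adjusted p = 0.031. These 4 were the matrix genes whose effect was called different between the times, beside 0.174% of all genes called in that direction, and none was called in the other (0.674% of all). No difference was called for any of them without the low-level filter, without the variance trend, or with any one of the 4 libraries of 24 h left out. With the lung lineage mean as a covariate, the calls of TIMP3 and FBLN1 were lost, with differences of -0.47 and -0.45.

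The start regions of these 4 genes are shown because their KI696 effect was called different between the times. Each is the RefSeq window of GRCh38.p14 from 250 bases before to 50 after the gene's start, 5′ to 3′ on the gene's strand. Capitals mark the GC box GGGCGG on either strand, where matches may overlap, and, in FN1, the cyclic AMP response element TGACGTCA. The windows are chr2:215436019-215436318 (minus), chr22:32801455-32801754 (plus), chr14:74612188-74612487 (minus) and chr22:45502633-45502932 (plus), with starts 104, 4, 141 and 645 bases inside the gene's first base in GENCODE 29.
FN1: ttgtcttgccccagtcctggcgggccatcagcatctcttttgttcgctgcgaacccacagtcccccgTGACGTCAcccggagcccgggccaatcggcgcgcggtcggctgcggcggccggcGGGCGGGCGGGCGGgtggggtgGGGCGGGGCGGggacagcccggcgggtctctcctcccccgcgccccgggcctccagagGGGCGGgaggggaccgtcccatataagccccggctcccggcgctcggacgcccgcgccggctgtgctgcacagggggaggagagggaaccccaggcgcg
TIMP3: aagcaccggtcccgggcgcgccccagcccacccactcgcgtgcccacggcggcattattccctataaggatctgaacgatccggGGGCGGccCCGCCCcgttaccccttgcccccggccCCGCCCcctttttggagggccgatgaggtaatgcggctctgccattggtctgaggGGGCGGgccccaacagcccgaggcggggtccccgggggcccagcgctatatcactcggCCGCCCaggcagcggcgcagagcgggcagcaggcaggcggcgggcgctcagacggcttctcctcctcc
LTBP2: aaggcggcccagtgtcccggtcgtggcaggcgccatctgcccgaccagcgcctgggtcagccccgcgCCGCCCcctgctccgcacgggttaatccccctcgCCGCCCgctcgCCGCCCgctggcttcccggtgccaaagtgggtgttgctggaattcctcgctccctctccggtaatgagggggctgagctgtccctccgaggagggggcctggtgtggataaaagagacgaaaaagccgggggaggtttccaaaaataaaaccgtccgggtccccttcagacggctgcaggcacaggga
FBLN1: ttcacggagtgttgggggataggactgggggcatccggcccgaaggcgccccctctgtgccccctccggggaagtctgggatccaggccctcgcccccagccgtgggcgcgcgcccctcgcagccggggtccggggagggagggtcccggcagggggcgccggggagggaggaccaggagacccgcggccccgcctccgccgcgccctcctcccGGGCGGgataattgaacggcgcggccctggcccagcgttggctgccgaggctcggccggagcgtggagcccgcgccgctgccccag
The FN1 element began at position -183 from the start, and 1.85% of all 35116 windows held TGACGTCA on either strand, beside 2.74% of those of tested genes and 4.0% of the windows of tested matrix genes. The GC box was in 45.0% of all windows, in 65.4% of those of tested genes and in 72.0% of those of tested matrix genes. The antioxidant response element core TGACNNNGC, the letters that NRF2 is known to bind with small MAF proteins, was in 13.3% of all windows, 14.4% of those of tested genes and 8.0% of those of tested matrix genes, and in none of the 4 printed here. Among the other motifs searched on both strands, TATAAA was in 11.5% of all windows, 6.16% of those of tested genes and 6.67% of those of tested matrix genes. The SMAD box CAGACA was in 16.9%, 13.5% and 16.0%. A window was found for 66 of the 89 genes, and 17 of them had more than 1. These are matches of letters only.

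**Figure D2:**
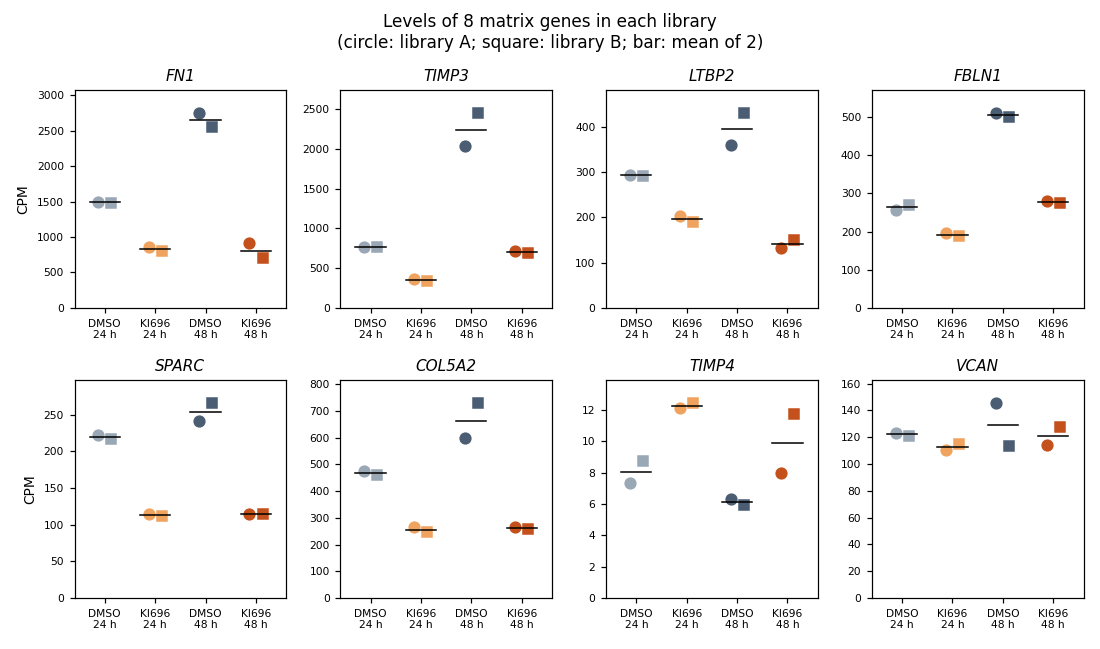
CPM of 8 genes in each library, on axes that start at 0, with circles for library A, squares for library B and a bar for the mean of 2 libraries. FN1, TIMP3, LTBP2 and FBLN1 rose with time in DMSO and were lower with KI696 at both times, SPARC and COL5A2 were lower at both, TIMP4 was higher at both, and the VCAN groups overlapped at 48 h.

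Among the other adhesive and matricellular glycoproteins, SPARC and tenascin C fell at both times, thrombospondin 1 was called lower at 48 h, and versican was called at neither. SPARC, a collagen-binding protein, stood at 222 and 216 CPM with DMSO and 114 and 112 with KI696 at 24 h, and at 241 and 265 with DMSO and 115 and 115 with KI696 at 48 h. Its KI696 libraries lay between 112 and 115 CPM at both times, and its change was -0.95 (SE 0.06) (adjusted p = 2.1e-07) and -1.13 (SE 0.06) (adjusted p = 3.2e-08). TNC, a glycoprotein of remodelling tissue, went from 53.1 and 56.0 to 27.1 and 27.8 CPM at 24 h and from 81.9 and 56.4 to 26.4 and 17.5 at 48 h, with changes of -0.99 (SE 0.18) and -1.65 (SE 0.18). The 24 h call of TNC was lost with the lung lineage covariate, at -0.28. THBS1, which can activate latent TGF-beta, was at 144 and 124 with DMSO and 116 and 121 CPM with KI696 at 24 h (adjusted p = 0.07) and at 172 and 184 with DMSO and 111 and 119 with KI696 at 48 h, a change of -0.63 (SE 0.08). The 24 h change of THBS1, -0.18 (SE 0.08), was called under quantile normalization (-0.19), in a fit of the 24 h libraries alone, without DMSO library B of 24 h (-0.28), and without both A or both B libraries of 48 h. VCAN, a large chondroitin sulfate proteoglycan, had changes of -0.11 (SE 0.10) and -0.09 (SE 0.10), neither called. At 48 h the VCAN value depended on the libraries, since it was 0.17 without both A libraries and, then called, -0.35 without both B libraries and -0.27 without DMSO library B of 48 h.

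Fibrillar collagens, the rope-forming chains, fell in 5 of 9 tested genes at each time, beside 30.5% of all genes at 24 h and 26.4% at 48 h. COL5A2, a chain of type V collagen that helps set fibril width, stood at 474 and 461 CPM with DMSO and 264 and 248 with KI696 at 24 h, and 599 and 728 with DMSO and 265 and 259 with KI696 at 48 h. The 4 KI696 values lay in a narrow band below all DMSO values, with changes of -0.87 (SE 0.08) and -1.33 (SE 0.08) (adjusted p = 4.4e-08). COL3A1, the chain of type III collagen, went from 86.8 and 82.6 to 35 and 38.5 CPM and from 112 and 96.7 to 46.5 and 36.9, with changes of -1.20 (SE 0.11) and -1.32 (SE 0.11). COL1A1 was at 30.9 and 26.8 CPM with DMSO and 9.19 and 7.13 with KI696 at 24 h, and 28.8 and 23.7 with DMSO and 14.2 and 7.85 with KI696 at 48 h, with changes of -1.80 (SE 0.23) and -1.29 (SE 0.23). The groups did not overlap at either time. COL5A3 changed by -1.17 (SE 0.20) and -1.56 (SE 0.20). COL27A1, a cartilage fibril chain, was called higher at 24 h, at 18.3 and 19.2 CPM with DMSO and 26.6 and 24.8 with KI696, a change of 0.45 (SE 0.16), and not at 48 h (-0.09, SE 0.16). Its 24 h call was lost with any one 24 h library left out, without the low-level filter, without the variance trend and with the lung lineage covariate (0.61). Its 48 h change was called lower, at -0.49, without both A libraries of 48 h and was 0.30 without both B libraries.

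Of the other collagens, 6 of 12 tested genes were called lower at 24 h, beside 30.5% of all genes, and 10 of 12 at 48 h, beside 26.4%. COL6A1, a chain of the beaded-filament type VI collagen, went from 475 and 479.7 to 315 and 285 CPM at 24 h and from 478 and 631 to 241 and 235 at 48 h. Its changes were -0.67 (SE 0.10) and -1.21 (SE 0.10), and those of COL6A3, another chain of the same collagen, -0.82 (SE 0.11) and -1.05 (SE 0.11). COL9A2, a chain of the fibril-associated type IX collagen, stood at 29.3 and 28.6 with DMSO and 14.5 and 13.4 CPM with KI696 at 24 h and at 53.0 and 53.5 with DMSO and 18.1 and 14.4 with KI696 at 48 h, with changes of -1.05 (SE 0.12) and -1.71 (SE 0.12). COL7A1, which forms the anchoring fibrils under the epidermal basement membrane, had 539.5 and 545 with DMSO and 398 and 383 CPM with KI696 at 24 h, and 247 and 541 with DMSO and 176 and 126 with KI696 at 48 h. Its DMSO libraries of 48 h were far apart. The change of -0.47 (SE 0.25) at 24 h was not called (adjusted p = 0.13) and that of -1.29 (SE 0.25) at 48 h was (adjusted p = 0.00073). With a fit of the 24 h libraries alone the same -0.47 was called, as its error was no longer shared with the 48 h groups. COL18A1, the source of endostatin, changed by -0.24 (SE 0.09) at 24 h and -0.66 (SE 0.09) at 48 h, and the first value lay at the threshold and was called under 11 of the alternatives. Of the basement membrane network collagens, COL4A1 had at most 2.94 CPM in any library and changes of 0.16 (SE 0.35) and -0.17 (SE 0.35), neither called. COL4A6 went from 2.73 and 2.21 to 0.612 and 0.143 CPM and from 7.55 and 3.77 to 0.981 and 0.484, with changes of -2.24 (SE 0.50) and -2.57 (SE 0.50), and the call at 24 h was lost with the lung lineage covariate, at -1.34.

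Laminin chains fell in 9 of 10 tested genes at 24 h, beside 30.5% of all genes, and in 6 of 10 at 48 h, beside 26.4%. LAMB1 was called at neither time. LAMB1, the beta chain of many laminin trimers, stood at 536 and 535 CPM with DMSO and 533 and 553 with KI696 at 24 h, and at 508 and 547 with DMSO and 458 and 518 with KI696 at 48 h. Its groups overlapped at both times, with changes of 0.02 (SE 0.06) and -0.12 (SE 0.06). Under quantile normalization, and without KI696 library B of 48 h, the 48 h change of LAMB1 was called, at -0.23 and -0.20. LAMC1, the gamma chain that pairs with it, went from 295 and 293 to 207 and 212 CPM and from 342 and 333 to 239 and 242, a change of -0.49 (SE 0.05) and -0.49 (SE 0.05). LAMA5 and LAMB2, chains of mature epithelial and vascular basement membranes, changed by -0.95 (SE 0.06) and -1.43 (SE 0.10) at 24 h and by -1.0 (SE 0.06) and -1.50 (SE 0.10) at 48 h. For both genes all KI696 libraries lay below all DMSO libraries.

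LAMA3 and LAMB3 encode chains of laminin that anchor epithelial cells at hemidesmosomes. LAMB3 went from 52.5 and 26.4 to 4.65 and 7.98 CPM at 24 h, and at 48 h it was at 50.4 and 16.7 with DMSO and 31.4 and 11.6 with KI696. Library A held more LAMB3 than library B in both 48 h groups, and the groups overlapped. Its change was -2.56 (SE 0.49) at 24 h (adjusted p = 0.00091) and -0.60 (SE 0.49) at 48 h (adjusted p = 0.34). The 48 h value was 0.19 without DMSO library A and 0.11 without KI696 library B, and it was called at -1.38 without DMSO library B and at -1.30 without KI696 library A. LAMA3 showed the same order of libraries at 48 h, with 12.8 and 6.23 with DMSO and 1.35 and 2.71 CPM with KI696 at 24 h and 8.23 and 3.77 with DMSO and 3.5 and 2.32 with KI696 at 48 h. Its changes were -2.09 (SE 0.42) and -0.91 (SE 0.42), and the second was not called (adjusted p = 0.091). With the lung lineage covariate the 24 h calls of LAMA3 and LAMB3 were lost, at -1.21 and -0.77.

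The start regions of LAMA3 and LAMB3 are shown because they held the AP-1 letters TGANTCA, which 7.71% of all windows and 5.42% of those of tested genes held on either strand. Counted by gene, 710 of the 9678 tested genes with a window held it. Of the 57 tested matrix genes with a window, 3 held it, the third being ADAMTS12. None of the 26 matrix genes with a window that were called lower at both times did, and this small count was not tested. Capitals mark TGANTCA and the GC box GGGCGG on either strand, in the RefSeq windows of GRCh38.p14 at chr18:23872770-23873069 (plus) and chr1:209651325-209651624 (minus), the latter 1 of 3 for that gene. The LAMA3 window stands at a start inside the gene, 183577 bases after the first base of the gene in GENCODE 29 (hg38 chr18:23689443-23956222), and that of LAMB3 1092 bases after it (chr1:209614870-209652466).
LAMA3: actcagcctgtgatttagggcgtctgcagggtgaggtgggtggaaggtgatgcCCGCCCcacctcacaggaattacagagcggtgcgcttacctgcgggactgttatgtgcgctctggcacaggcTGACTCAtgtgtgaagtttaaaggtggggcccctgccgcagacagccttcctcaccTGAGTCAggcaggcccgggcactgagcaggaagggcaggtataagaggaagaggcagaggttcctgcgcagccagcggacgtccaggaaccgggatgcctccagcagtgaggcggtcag
LAMB3: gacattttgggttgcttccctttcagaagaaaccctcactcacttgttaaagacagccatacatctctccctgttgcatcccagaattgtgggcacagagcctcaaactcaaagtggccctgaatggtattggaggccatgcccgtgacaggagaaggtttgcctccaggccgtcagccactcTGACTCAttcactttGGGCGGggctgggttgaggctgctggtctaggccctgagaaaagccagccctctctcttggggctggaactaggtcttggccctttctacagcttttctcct
The matches began at positions -125 and -69 in LAMA3 and at -67 in LAMB3. They describe letters and say nothing of a bound factor.

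**Figure D3:**
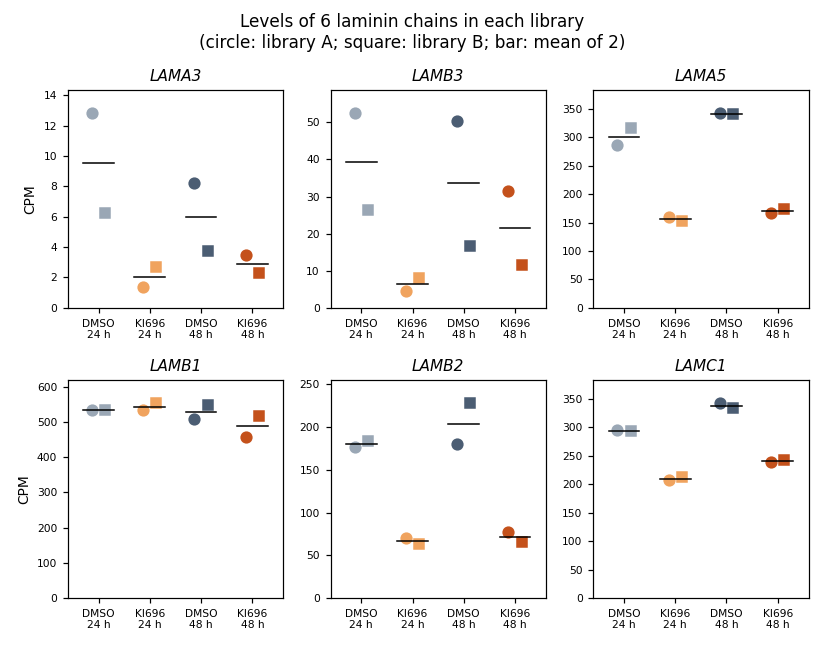
CPM of 6 laminin chains in each library, on axes that start at 0, with circles for library A, squares for library B and a bar for the mean of 2 libraries. In both 48 h groups library A held more LAMA3 and LAMB3 than library B, LAMA5, LAMB2 and LAMC1 were lower with KI696 at both times, and the LAMB1 groups overlapped at both.

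Of 8 tested microfibril genes, LTBP2 and FBLN1 included, 6 were called lower at each time, beside 30.5% of all genes at 24 h and 26.4% at 48 h. LTBP3 and LTBP1, which hold latent TGF-beta in the matrix, changed by -0.61 (SE 0.08) and -1.12 (SE 0.13) at 24 h and by -0.94 (SE 0.08) and -1.23 (SE 0.13) at 48 h. LTBP3 stood at 325 and 354 with DMSO and 227 and 216 CPM with KI696 at 24 h and at 374 and 461 with DMSO and 222 and 212 with KI696 at 48 h. FBLN2 had at most 4.53 CPM in any library, with changes of -2.21 (SE 0.60) (called) and -1.0 (SE 0.60) (not called), and FBLN7 changed by -0.66 (SE 0.46) (not called) and -1.74 (SE 0.46) (called).

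Matrix metalloproteinases fell in 7 of 11 tested genes at 24 h, beside 30.5% of all genes, and 6 of 11 at 48 h, beside 26.4%. MMP2, a gelatinase, had the highest level per length of them, and stood at 160.1 and 174 CPM with DMSO and 92.2 and 99.2 with KI696 at 24 h, and 185 and 226 with DMSO and 78.8 and 96.3 with KI696 at 48 h, with changes of -0.80 (SE 0.10) and -1.23 (SE 0.10). MMP14, the membrane-bound protease that activates pro-MMP2, went from 51.2 and 52.7 to 21.1 and 20.1 CPM and from 78.6 and 78.9 to 32.4 and 21.9, with changes of -1.33 (SE 0.14) and -1.56 (SE 0.14). For both, all KI696 libraries lay below all DMSO libraries. The collagenases MMP13 and MMP1 changed by -1.69 (SE 0.22) and -0.87 (SE 0.24) at 24 h and by -2.07 (SE 0.22) and -1.28 (SE 0.24) at 48 h. The 24 h call of MMP1 was lost without any one of DMSO libraries A and B and KI696 library B of 24 h, under quantile normalization and with the lung lineage covariate. The change was -0.85, -0.88 and -0.61 in the fits without these libraries, -0.43 under quantile normalization and -0.84 with the covariate. MMP15, another membrane-bound protease, fell from 14.5 and 14.9 to 1.59 and 1.85 CPM at 24 h, a change of -2.93 (SE 0.48), and with the lung lineage covariate that call was lost, at -0.87. At 48 h it stood at 8.78 and 3.98 CPM with DMSO and 9.81 and 2.42 with KI696, where library A exceeded library B in both groups, and its change of -0.25 (SE 0.48) was not called. MMP24 was called at neither time, with changes of -0.08 (SE 0.11) and -0.27 (SE 0.11), and the first was 0.019 under TMM and median-ratio scaling. The second was called, at -0.36, without DMSO library A of 48 h.

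The inhibitors of these proteases split. TIMP1, TIMP2 and TIMP3 were called lower at both times and TIMP4 higher at both. TIMP1 went from 187 and 185 to 126 and 128 CPM at 24 h and from 175 and 216 to 104 and 89.2 at 48 h, with changes of -0.55 (SE 0.09) and -1.01 (SE 0.09). TIMP2 changed by -0.57 (SE 0.07) and -0.98 (SE 0.07). TIMP4, the family member with the lowest level per length, stood at 7.36 and 8.72 CPM with DMSO and 12.1 and 12.4 with KI696 at 24 h, and at 6.31 and 5.90 with DMSO and 7.99 and 11.7 with KI696 at 48 h. Its change was 0.60 (SE 0.20) (adjusted p = 0.024) and 0.65 (SE 0.20) (adjusted p = 0.016). The 24 h call was lost without DMSO library A, KI696 library A or KI696 library B of 24 h and with the lung lineage covariate, where the change was 0.20. The 48 h call was lost without DMSO library B (0.60) or KI696 library B (0.38) of 48 h, without both B libraries (0.33), and in a fit of the 48 h libraries alone.

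ADAMTS proteases, which cut proteoglycans and procollagens, fell in 5 of 9 tested genes at 24 h and 7 of 9 at 48 h. Over all genes the shares called lower were 30.5% and 26.4%. ADAMTS9, a versican-cutting protease, had the largest fall at 24 h of those with a mean of at least 5 CPM, from 81.4 and 85.0 to 24.6 and 22.5 CPM at 24 h and from 137 and 117 to 37.6 and 31.0 at 48 h. Its changes were -1.81 (SE 0.11) (adjusted p = 8.4e-08) and -1.88 (SE 0.11) (adjusted p = 3.6e-08). ADAMTS13, the protease of von Willebrand factor, ADAMTS15 and ADAMTS7 changed by -1.47 (SE 0.33), -1.26 (SE 0.23) and -0.65 (SE 0.17) at 24 h and by -1.84 (SE 0.33), -1.65 (SE 0.23) and -1.40 (SE 0.17) at 48 h. The 24 h call of ADAMTS7 was lost without DMSO library B of 24 h (-0.60), under quantile normalization (-0.26) and with the lung lineage covariate (-0.47). That of ADAMTS13 was lost with the covariate, at -1.21. ADAMTS12, with changes of 0.43 (SE 0.23) and 0.47 (SE 0.23), was not called at either time. Its 24 h value was called at 0.82 under quantile normalization and turned to -0.31 with the lung lineage covariate. Its 48 h value was called at 0.72 under quantile normalization, 0.46 with the covariate, 0.82 without KI696 library A of 48 h and 0.66 without both A libraries.

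Lysyl oxidases, the copper enzymes that cross-link collagen and elastin, had 2 of 5 called lower and 2 higher at 24 h. Over all genes 30.5% were called lower and 18.1% higher at that time. At 48 h 3 were called lower, beside 26.4% of all genes. LOXL2 went from 50.3 and 42.5 to 23.4 and 23.9 CPM at 24 h and from 77.2 and 83.5 to 36.0 and 27.9 at 48 h, with changes of -0.96 (SE 0.12) and -1.33 (SE 0.12). LOXL1 changed by -0.55 (SE 0.15) and -0.66 (SE 0.15), and its 24 h call was lost without DMSO library B (-0.41) or KI696 library A (-0.48) of 24 h and without the variance trend. LOX stood at 26.1 and 27.7 CPM with DMSO and 36.7 and 34.1 with KI696 at 24 h, and at 26.1 and 21.0 with DMSO and 26.6 and 27.9 with KI696 at 48 h. Its change was 0.39 (SE 0.12) at 24 h, and 0.22 (SE 0.12) at 48 h was not called. The 24 h call of LOX was lost without DMSO library A (0.35) or KI696 library A (0.34) of 24 h and with the lung lineage covariate (0.45). The 48 h change was called at 0.37 without DMSO library A of 48 h and at 0.40 without both A libraries. LOXL3, named because few genes rose, changed by 0.72 (SE 0.26) (adjusted p = 0.035) and 0.32 (SE 0.26) (adjusted p = 0.33). It had 23 to 44 reads in the 24 h libraries, and its 24 h call was lost with the lung lineage covariate. LOXL4 was called at 48 h alone, from 4.80 and 7.61 to 1.26 and 1.07 CPM, a change of -2.17 (SE 0.35).

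Culture time moved matrix genes upward in the vehicle cultures. From 24 to 48 h in DMSO, 20 of 76 were called higher, beside 5.29% of all genes, and 1 lower, beside 4.35% of all. The median change was 0.27, against -0.01 over all genes. The largest called increases were those of FBLN7 at 1.93 (SE 0.46), TIMP3 at 1.55 (SE 0.07), LOXL4 at 1.31 (SE 0.35), MMP11 at 1.14 (SE 0.21), FBLN1 at 0.94 (SE 0.06) and COL9A2 at 0.87 (SE 0.12). The calls of FBLN7, LOXL4 and MMP11 were each lost in at least 1 fit without a library. In the KI696 cultures 7 genes were called higher over the same time, beside 8.38% of all, and 7 lower, beside 3.61% of all, with a median of 0.06 against 0.04. TIMP3 (1.02, SE 0.07), FBLN1 (0.53, SE 0.06), ADAMTS9 (0.53, SE 0.11), LOXL2 (0.42, SE 0.12), LAMC1 (0.20, SE 0.05), COL5A1 (2.30, SE 0.66) and FBLN2 (2.30, SE 0.60) were higher. COL16A1 (-2.11, SE 0.48), COL7A1 (-1.39, SE 0.25), MMP1 (-1.11, SE 0.24), LTBP2 (-0.47, SE 0.08), COL6A3 (-0.45, SE 0.11), TIMP1 (-0.40, SE 0.09) and COL6A1 (-0.33, SE 0.10) were lower. With KI696 at 24 h, COL5A1 had 1 and 6 reads and FBLN2 had 1 and 0. The calls of COL5A1 and FBLN2 were lost with 1 or 5 CPM added. That of LOXL2 was lost with 5 CPM added, without the filter, under median-ratio and quantile scaling and with the lung lineage covariate. That of COL16A1 was lost with 5 CPM added. In all, calls were lost under 11 alternatives for COL5A1, 10 for LOXL2, 7 for FBLN2, 5 for COL6A3 and 4 for TIMP1. They were lost under 3 each for ADAMTS9, COL16A1 and COL7A1, and under 2 each for LTBP2 and MMP1. Without the variance trend 4 calls were made in DMSO and 3 in KI696, and with either KI696 library of 24 h left out 4 were made in KI696. Each time contrast shares its libraries with the KI696 contrasts, so these values are set side by side and are not independent of them.

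Libraries of the same group differed in part of these genes. At 48 h, library A exceeded library B by 1 log2 unit or more in 7 of 76 genes with DMSO (9.21%, beside 2.61% of all) and in 8 with KI696 (beside 4.2% of all). LAMB3, MMP15, MMP17 and COL5A1 did so in both groups, and no gene did the opposite in both. They are named after their values were seen. All 4 were called lower at 24 h and none at 48 h. A choice by wide gaps within both 48 h groups itself makes a 48 h call less likely. No count by this rule was made over all tested genes. The other 72 genes had 44 called lower at 24 h and 52 at 48 h, with medians of -0.79 and -1.18. Without both A libraries of 48 h, 52 of 76 were called lower at 48 h, and without both B libraries 51.

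**Figure D4:**
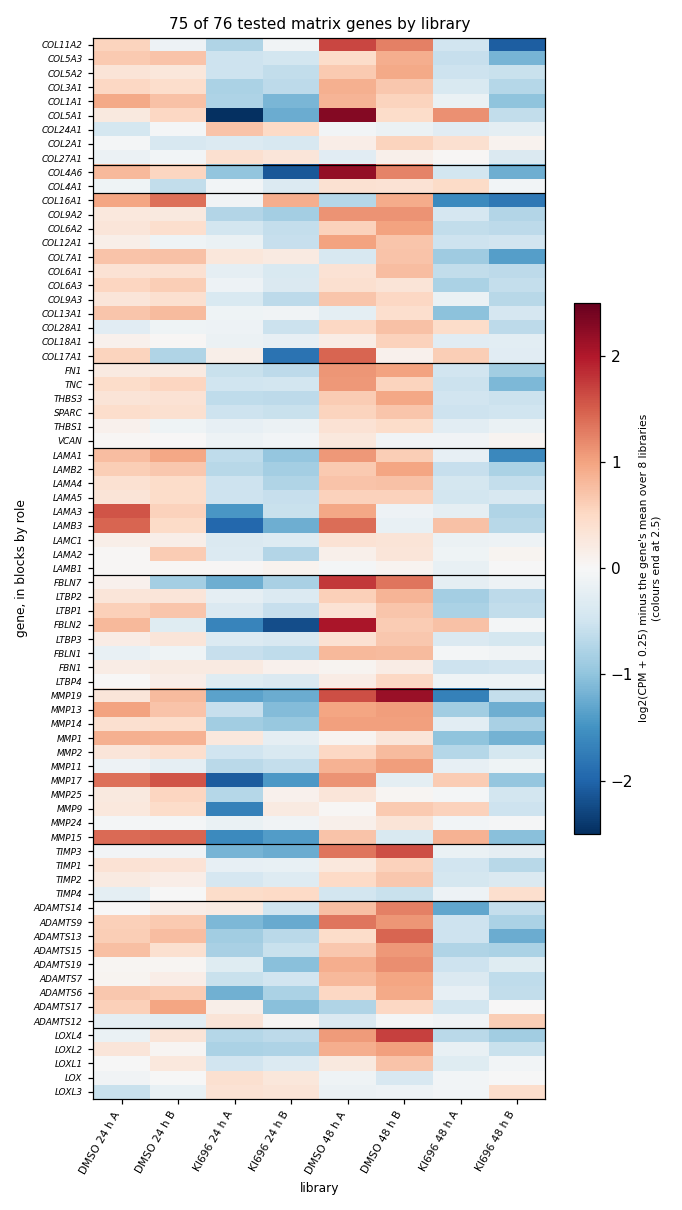
Levels of 75 of the 76 tested genes in each library, as log2(CPM + 0.25) minus the gene's mean over the 8 libraries, in blocks by role (red above the mean, blue below, colours end at 2.5). The DMSO columns are mostly red and the KI696 columns mostly blue, and LAMB3, MMP15, MMP17 and COL5A1 are redder in library A of each 48 h group.

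Markers of cell identity moved beside the matrix genes, and their part in the result was not tested. The mean log2 CPM of 20 epithelial markers was 5.51 and 5.20 with DMSO at 24 h and 2.28 and 2.88 with KI696, then 4.88 (A) and 3.58 (B) with DMSO at 48 h and 4.70 (A) and 2.60 (B) with KI696. The mean of the 76 matrix genes was 4.44 and 4.4, then 3.56 and 3.53 at 24 h, and 4.68 and 4.72, then 3.77 and 3.53 at 48 h. At 48 h it was lower in library A than B with DMSO and higher with KI696. Of 12 fibroblast and pericyte markers 7 were in the table, with summed levels of 355 to 501 CPM over the DMSO libraries and 189 to 232 CPM over the KI696 libraries. Most of each sum came from S100A4, at 233 to 352 CPM with DMSO and 140 to 160 with KI696. PDGFRB, PDGFRA and LUM stood at 56.6 to 81.7, 30.4 to 33.3 and 27.5 to 36.8 CPM with DMSO. With KI696 they stood at 17.1 to 32.2, 17.2 to 18.2 and 11.7 to 17.0 CPM. ACTA2, RGS5 and TCF21 had at most 1.66, 3.68 and 3.16 CPM in any library. Of the 7 fibroblast and pericyte markers, 6 were called lower at 24 h, beside 30.5% of all genes, and 5 at 48 h, beside 26.4%. PDGFRB, a receptor of pericytes and mesenchymal cells, changed by -1.70 (SE 0.10) and -1.34 (SE 0.10). Of 10 endothelial markers 6 were in the table, summing to 2.62 to 17.6 CPM, and the defining CDH5 and TEK had at most 0.415 and 0.119 CPM in any library. The VEGF receptors KDR and FLT1 of the same list reached 9.26 and 7.24 CPM, and KDR was called lower at 24 h, at -4.03 (SE 0.97), and not at 48 h, at 1.06 (SE 0.97). Of 12 leukocyte markers 7 were in the table, summing to 34.7 to 62.8 CPM, mostly from CD68. LAPTM5 and LYZ reached 13.1 and 7.53 CPM, and the B cell marker CD79A had at most 1.37 CPM. Of the 4 leukocyte markers tested, 1 was called lower at 24 h, beside 30.5% of all genes, and 3 at 48 h, beside 26.4%. With the mean of the lung lineage markers in each library as a covariate, 33 matrix genes were called lower at 24 h and 54 at 48 h, with medians of -0.80 and -1.13. Over all tested genes this fit called 24.5% in either direction at 24 h and 52.8% at 48 h, beside 48.6% and 48.8% without the covariate. The 9 markers in that mean were all called lower with KI696 at 24 h (median -3.89), and 2 were at 48 h (median 0.40). At 24 h the covariate thus moved with the treatment, and a call lost there cannot tell them apart. All 12 NRF2 target genes on the list were called higher at both times, with medians of 2.39 and 2.47.

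**Figure D5:**
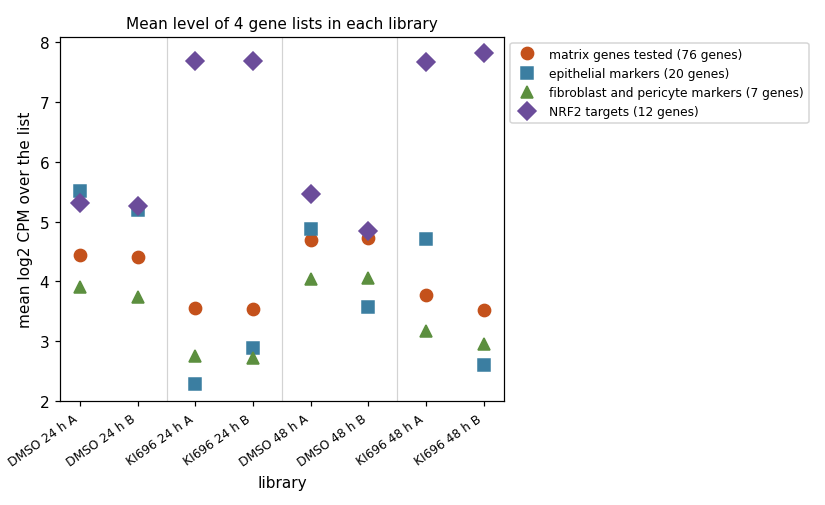
Mean log2 CPM over each of 4 gene lists in each library (circles for the 76 matrix genes, squares for epithelial markers, triangles for fibroblast and pericyte markers, diamonds for NRF2 targets). The matrix mean lay between 4.4 and 4.72 in the DMSO libraries and between 3.53 and 3.77 in the KI696 libraries, while the epithelial mean at 48 h was 4.88 and 4.70 in the A libraries and 3.58 and 2.60 in the B libraries.

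Among matrix and related genes outside the symbol families, each list below had more genes called lower than higher at both times. The counts of these lists stand beside 30.5% of all tested genes called lower and 18.1% higher at 24 h, and 26.4% lower and 22.4% higher at 48 h. Of 32 tested other matrix glycoproteins and proteoglycans, 18 (56.2%) were called lower and 3 (9.38%) higher at 24 h, with a median of -0.71, and 15 (46.9%) lower and 3 higher at 48 h, with a median of -0.49. IGFBP7, a secreted binder of growth factors, changed by -1.18 (SE 0.16) and -2.57 (SE 0.16), a difference of -1.39 (SE 0.22) with adjusted p = 0.015. EFEMP2, a fibulin needed for elastic fibres, went from 109.6 ± 5.46 to 53.0 ± 2.80 CPM at 24 h (mean ± SD, n = 2 libraries) and changed by -1.57 (SE 0.10) at 48 h. Of 25 tested genes of collagen folding and processing, 5 (20%) rose and 10 (40%) fell at 24 h and 6 (24%) rose and 8 (32%) fell at 48 h, with medians of -0.04 and -0.13, so these shares lay near those of all genes. PCOLCE2, which enhances procollagen cleavage, rose from 5.30 ± 0.0578 to 21.3 ± 1.54 CPM at 24 h (1.96, SE 0.17) and by 1.65 (SE 0.17) at 48 h, while P4HB, a subunit of prolyl 4-hydroxylase, changed by -0.55 (SE 0.06) and -0.41 (SE 0.06), and SEC24D, a coat protein of procollagen export, by -0.72 (SE 0.09) and -1.01 (SE 0.09).

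Of 11 tested cell-surface proteoglycans and related receptors, 9 (81.8%) were called lower and 1 (9.09%) higher at 24 h and 7 (63.6%) lower and 2 (18.2%) higher at 48 h. The glypican GPC1 rose from 105 ± 4.83 to 254 ± 3.71 CPM at 24 h (1.27, SE 0.06), with 0.97 (SE 0.06) at 48 h, and NRP1, a co-receptor for VEGF and semaphorins, changed by -1.02 (SE 0.06) and -1.35 (SE 0.06). Of 13 tested genes of the plasminogen system and protease inhibitors, 9 (69.2%) were called lower at 24 h and 7 (53.8%) at 48 h, and none higher. SPINT2, an inhibitor of serine proteases, changed by -1.10 (SE 0.07) and -1.14 (SE 0.07). PLAUR, the urokinase receptor, and SERPINE2, an inhibitor of thrombin and urokinase, changed by -0.30 (SE 0.08) and -0.10 (SE 0.09) at 24 h, the second not called, and by -0.87 (SE 0.08) and -0.71 (SE 0.09) at 48 h. Of 17 other matrix proteases and matrix-modifying enzymes, 9 (52.9%) were called lower and 2 (11.8%) higher at 24 h and 8 (47.1%) lower and 3 (17.6%) higher at 48 h. CTSB, a cysteine protease, changed by -0.70 (SE 0.07) and -0.93 (SE 0.07), the heparan sulfatase SULF2 by -0.63 (SE 0.08) and -0.95 (SE 0.08), and the membrane protease ADAM19 by -0.72 (SE 0.17) and -1.79 (SE 0.17).

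Of 8 tested genes of hyaluronan metabolism, 3 (37.5%) were called lower at 24 h, and 4 (50%) lower and 1 (12.5%) higher at 48 h. HAS2, a hyaluronan synthase, changed by -0.81 (SE 0.13) and -0.48 (SE 0.13), and TMEM2, a hyaluronidase of the cell surface, by -0.54 (SE 0.06) and -0.70 (SE 0.06). The gene called higher at 48 h was HMMR, a hyaluronan-binding protein of the mitotic spindle, at 0.31 (SE 0.08) after -0.32 (SE 0.08) at 24 h. Of 18 tested TGF-beta ligands, receptors and SMADs, 8 (44.4%) were called lower and 1 (5.56%) higher at 24 h and 11 (61.1%) lower at 48 h. TGFBR2, the type II receptor that TGF-beta binds first, went from 219.5 ± 0.942 to 136 ± 4.76 CPM at 24 h (-0.70, SE 0.09) and changed by -0.78 (SE 0.09) at 48 h, and the BMP receptor BMPR2 changed by -0.49 (SE 0.07) and -0.85 (SE 0.07). Of 14 actin-SRF and YAP target genes, 10 (71.4%) were called lower at 24 h, and 8 (57.1%) lower and 1 (7.14%) higher at 48 h. TPM1, an actin-binding tropomyosin, changed by -0.89 (SE 0.09) and -1.23 (SE 0.09), and LATS2, a kinase of the Hippo pathway, by -0.55 (SE 0.11) and -0.64 (SE 0.11). Several genes of these lists also stand in marker lists or were known from earlier results, so the counts are descriptions.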

How the data were processed

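Calu-6 mRNA was read as single 75 bp reads. Per the submitters' processing notes, the authors used the hg38 build, R 4.0.3 and edgeR; of the aligner, counter and annotation, nothing is given in the sources used here. Values in the deposited table are log2, read from their steps as log2 CPM on an effective library size with a small added count. Whole reads came back from these steps within 2.4e-09 reads, with 6994108 to 14219064 per library, so that 3 reads equal 0.213 to 0.428 CPM (counting error only).

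The table listed 14556 genes, of which 21 had become calendar dates and were left out. Genes that reached 1 CPM in 2 or more libraries (13213) were tested on the deposited log2 values with limma 3.58.1 in R 4.3.3, with a mean per group over all 8 libraries, two-sided moderated tests, a variance trend, and adjustment after Benjamini and Hochberg at 0.05. The plan foresaw log2 of the value plus 1 for linear values, and this became an alternative. Log2 changes carry their SE. The test was checked on simulated data. Exon lengths and positions came from GENCODE 29, and promoter windows from RefSeq.

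The members, lists and roles were chosen with earlier results of these data known. Named genes are, per KI696 contrast, up to 12 called members each way by size with a mean of at least 5 CPM and groups apart, up to 6 each way for the other contrasts, a fixed set of well-known matrix genes, per role the 3 highest members and that with the smallest p, and up to 3 per list of other genes; some that meet the rule are left out. The alternatives were 1 or 5 CPM added, no filter, a 5 CPM filter, TMM, median-ratio and quantile scaling, no variance trend, fits of 1 time alone, the lung lineage mean as covariate, and each library left out. Leaving out both A or both B libraries of 48 h was added after seeing the data. The values of 1 tested gene and 1 marker gene are not reported here, though the counts include them.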

Additional observations from a re-analysis of the deposited data

Results flagged for a closer look

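In FN1, TIMP3, LTBP2 and FBLN1 the KI696 effect differed between the times by limma's test of the difference itself. The effect at 48 h minus that at 24 h was -0.90 for LTBP2, -0.89 for FN1, -0.53 for TIMP3 and -0.41 for FBLN1. Both KI696 libraries lay below both DMSO libraries at each time in all 4. Over all tested genes this order held for 47.4% at 24 h and for 40.5% at 48 h. COL24A1, a low-level fibrillar collagen, had both KI696 libraries above both DMSO libraries at 24 h (1.35 and 1.14 against 0.475 and 0.692 CPM). At 48 h its KI696 libraries lay below both DMSO libraries (0.561 and 0.581 against 0.686 and 0.640 CPM). Its difference of effects, -1.01, did not pass limma's test (adjusted p = 0.53). With 2 libraries per group, no single library could be tested as standing apart.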

How the results depend on the processing

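The counts of members called lower stayed within 1.5 times under all alternatives run, from 33 to 53 at 24 h (42 to 50 with a library left out) and from 44 to 56 at 48 h (50 to 56). The 44 at 48 h came from the 5 CPM filter, which left 57 members to test, and without the filter 89 were tested. At 24 h the share of called genes that were higher was 37.2% over all genes, 50.7% under TMM, 51% under median-ratio and 51.3% under quantile scaling. The median of all genes moved from -0.12 to -0.02, -0.02 and 0.03. Under TMM 48 members were called lower, with a median of -0.73.

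The 4 members called higher at 24 h became 0 with the lung lineage covariate and 0 to 4 with a library left out. The 1 called higher at 48 h became 2 under quantile scaling, 0 in a fit of 48 h alone, 2 with the covariate, 0 to 2 with a library left out, 3 without both A libraries and 0 without both B. The 4 differences between times became 0 without the filter, 0 without the variance trend, 0 to 16 with a library left out, 24 without both A libraries and 14 without both B. Over all genes these calls went from 112 (0.848%) to 5, 0, 1 to 530, 838 (6.34%) and 756 (5.72%). The 21 calls over time in DMSO became 4 without the variance trend, 34 without both A libraries and 8 to 28 with a library left out. The 14 in KI696 became 9 with 5 CPM added, 3 without the variance trend, 25 without both B libraries and 4 to 20 with a library left out. The cause of these moves was not tested.

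These values turned sign. The KI696 median over time was -0.025 with the 5 CPM filter and -0.053 under quantile scaling. ADAMTS12 at 24 h was -0.31 with the covariate. COL27A1 at 48 h was 0.011 under quantile scaling and 0.30 without both B libraries, was called at -0.49 without both A, and ran from -0.30 to 0.11 with a library left out. COL4A1 ran from -0.10 to 0.42 at 24 h with a library left out, and at 48 h from -0.44 to 0.10, with 0.20 under quantile scaling and 0.094 without both B. LAMB1 at 24 h was -0.094 under quantile scaling and -0.17 with the covariate, and ran from -0.0055 to 0.047 with a library left out. LAMB3 at 48 h ran from -1.38 to 0.19. MMP24 at 24 h was 0.019 under TMM, 0.019 under median-ratio and 0.090 under quantile scaling. VCAN at 48 h ran from -0.27 to 0.090, with 0.17 without both A.

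No paired analysis was possible because the columns carry no replicate number. A fit without a library assumes that the one left varies like the other groups. With 2 libraries per group and 3 reads equal to 0.213 to 0.428 CPM, low members such as FBLN2 or COL4A6 rest on few reads.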
